A study of Mus musculus with 90 samples.

Results

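The genes described here encode subunits of voltage-gated sodium channels. They are 4 pore-forming alpha subunits, Scn1a, Scn2a, Scn3a and Scn8a, and 3 auxiliary beta subunits, Scn2b, Scn3b and Scn4b. They were chosen by name and matched by symbol, and they are 7 of the 38561 genes in the deposited tables. All 7 passed the filter on low counts in both tissues.

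A voltage-gated sodium channel opens when the membrane depolarizes and carries the inward current of the action potential. The alpha subunit forms the pore and the voltage sensors, and the beta subunits, which are single-pass membrane proteins with an immunoglobulin-like domain, change the gating and the surface level of the alpha subunit and take part in cell adhesion. In the striatum most neurons are medium spiny neurons, whose firing rests on these channels at the axon initial segment.

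RNA was sequenced from the striatum and the cortex of the right hemisphere of 45 C57BL6/J mice aged 9 months, 1 library per tissue and mouse, which gave 90 libraries. The mice were homozygous for the Q175 knock-in, an expanded CAG repeat in the Huntington's disease gene Htt, or wild type (WT). Once a day from the age of 5 weeks the mice received vehicle or PF-02545920 by mouth, a compound that inhibits PDE10A, the cyclic nucleotide phosphodiesterase of medium spiny neurons. The questions were what the knock-in and the chronic inhibitor do to expression in both tissues. Each tissue had Q175 vehicle (7 mice), Q175 at 0.32 mg/kg (10 mice), Q175 at 1.0 mg/kg (10 mice), Q175 at 3.2 mg/kg (9 mice) and WT vehicle (9 mice). WT mice that received the inhibitor are not among these groups. Every group had 5 females, and the males numbered 2, 5, 5, 4 and 4 in the same order. A mouse is named by group, sex and number, so that F2 is female 2 of its group. The replicates are separate mice. The knock-in is carried in every cell. The libraries are bulk tissue, in which fewer cells of a type and less RNA per cell cannot be told apart.

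The beta subunit genes lie on chromosome 9 and most of the alpha subunit genes on chromosome 2 (GENCODE M21 coordinates, GRCm38, whole gene spans with exons and introns). Scn2b (ENSMUSG00000070304) runs from 45117782 to 45130070 and Scn4b (ENSMUSG00000046480) from 45138395 to 45154152, both on the plus strand, with 8324 bases between them. Scn3b (ENSMUSG00000049281) lies on the same chromosome at 40269217 to 40291618, plus strand. Scn3a (ENSMUSG00000057182, 65457118 to 65567627, minus strand), Scn2a (ENSMUSG00000075318, 65620771 to 65767447, plus strand) and Scn1a (ENSMUSG00000064329, 66270778 to 66440840, minus strand) stand in a row on chromosome 2. Scn8a (ENSMUSG00000023033) is on chromosome 15, at 100869858 to 101045938, plus strand. Genes on the opposite strand overlap Scn1a (Gm13630, a median of 38 counts per library), Scn3a (Gm13595, 0 counts) and Scn2b (Gm10684, 4 counts), and Gm47266, which overlaps Scn3b, was not analysed here. Whether the counting used strand is not stated.

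Scn2b and Scn4b are neighbours that were both lower in Q175 mice, and their promoter sequences are shown for that reason, each as 250 bases before to 50 bases after the RefSeq gene start (GRCm38.p6, chr9:45117626-45117925 for Scn2b and chr9:45138374-45138673 for Scn4b, plus strand, 5′ to 3′). The GENCODE M21 starts lie further upstream than the RefSeq starts, so that 156 bases of the Scn2b window and 21 bases of the Scn4b window lie before them. CpG dinucleotides are in capitals.
Scn2b: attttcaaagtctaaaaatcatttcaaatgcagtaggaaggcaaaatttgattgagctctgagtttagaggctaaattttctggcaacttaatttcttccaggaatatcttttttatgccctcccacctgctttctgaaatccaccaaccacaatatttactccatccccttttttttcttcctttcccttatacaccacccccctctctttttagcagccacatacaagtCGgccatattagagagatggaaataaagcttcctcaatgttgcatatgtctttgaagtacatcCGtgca
Scn4b: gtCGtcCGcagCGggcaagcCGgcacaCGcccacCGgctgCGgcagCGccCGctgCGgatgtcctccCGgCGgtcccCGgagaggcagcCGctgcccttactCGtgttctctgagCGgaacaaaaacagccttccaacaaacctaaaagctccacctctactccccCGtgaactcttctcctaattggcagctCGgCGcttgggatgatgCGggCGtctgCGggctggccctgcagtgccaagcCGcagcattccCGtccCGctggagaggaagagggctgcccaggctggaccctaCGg
The 2 windows are unlike each other. The Scn4b window is 66.3% G and C and holds 26 CpG, and the Scn2b window is 38.3% G and C and holds 2 CpG, beside a median of 52.7% and 7 CpG over 32851 mouse promoter windows of the same length. Searched on both strands, neither window holds the cyclic AMP response element half-site TGACG, the GC box GGGCGG or the TATA box TATAAA, which were found in 20.8%, 35.7% and 13.6% of all windows. This says only that these letters are absent from these 300 bases. RefSeq windows were matched for Scn1a, Scn2a, Scn8a, Scn2b and Scn4b.

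Library totals ran from 30510374 to 44943841 counts in the striatum and from 37233807 to 45781479 counts in the cortex. The tissue labels fitted their markers, since 10 of 10 medium spiny neuron genes were higher and 10 of 10 cortical excitatory neuron genes were lower in WT striatum than in WT cortex. Htt, the knocked-in gene, stood at 107.7 to 125.1 CPM (counts scaled to a common library total) in Q175 vehicle striatum, against 172.7 to 216.7 CPM in WT striatum, and at 122.1 to 134.6 CPM in Q175 vehicle cortex, against 214.9 to 243.7 CPM in WT cortex. Cortex libraries F1 and F4 of the 1.0 mg/kg group stood apart, with Htt at 72.7 and 79.2 CPM. In the striatum 5 libraries held more than 300 CPM of summed cortical excitatory neuron markers, with WT vehicle F2 highest at 500.5 CPM. Calls that change without these libraries are given with and without them.

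Scn4b fell most of the 7 genes. It encodes the beta-4 subunit, which binds the alpha subunit through a disulfide bond and whose cytoplasmic tail can block the open pore, a mechanism tied to resurgent sodium current. In the striatum its lowest, median and highest levels were 386, 416.7 and 494.6 CPM in Q175 vehicle mice, against 1470, 2069 and 2299 CPM in WT vehicle mice. Every Q175 library lay far below every WT library. The group means were 435.8 ± 44.7 CPM in Q175 vehicle (SD, n = 7) and 2003 ± 235 CPM in WT vehicle (SD, n = 9). The log2 change was -2.20 ± 0.0933 (SE, here and for all log2 changes; edgeR quasi-likelihood test, adjusted p = 1.38e-23), which is 0.218 times the WT level, and it ranked 12 by p among 17315 genes tested.

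In the cortex Scn4b was expressed at a far lower level and fell as well. Its lowest, median and highest levels were 49.6, 55.31 and 61.48 CPM in Q175 vehicle cortex, against 129.6, 150.8 and 165.8 CPM in WT vehicle cortex. The ranges did not overlap in this tissue either. The log2 change was -1.38 ± 0.104 (adjusted p = 1.11e-14), or 0.384 times the WT level. Leaving out any 1 library kept the striatal change between -2.25 and -2.16 and the cortical change between -1.41 and -1.35. WT vehicle F2, the striatum library with the most cortical markers, was also the lowest WT library for Scn4b at 1470 CPM, the next being M3 at 1845 CPM.

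Scn2b encodes the beta-2 subunit, which like beta-4 is linked to the pore by a disulfide bond. It fell in both tissues, by less than Scn4b. Striatal levels were 243.9, 264.4 and 277.1 CPM (lowest, median, highest) in Q175 vehicle mice, against 317, 359.3 and 395.8 CPM in WT vehicle mice. The groups were fully separated, and the log2 change was -0.43 ± 0.0527 (adjusted p = 4.06e-09), or 0.743 times the WT level. Cortical levels were 216, 223.3 and 235 CPM in Q175 vehicle mice, against 224.3, 236.5 and 241.7 CPM in WT vehicle mice. These ranges overlapped, and the cortical change was -0.08 ± 0.0282 (adjusted p = 0.0200), or 0.944 times the WT level, a call that held under 7 of 14 other settings.

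Scn3b encodes the beta-3 subunit, which is bound without a disulfide bond, and it went the other way. In the striatum it stood at 174.5, 184.8 and 198.8 CPM (lowest, median, highest) in Q175 vehicle mice, against 133.7, 172.4 and 186.5 CPM in WT vehicle mice. The ranges overlapped and the log2 change was 0.14 ± 0.0537 (adjusted p = 0.0342), or 1.10 times the WT level. The lowest WT value was again that of F2. The call was lost without Q175 vehicle F1 (0.12), F2 (0.13) or F5 (0.13), without WT vehicle F2 (0.10) or F5 (0.13), and without the 5 libraries over 300 CPM of cortical markers (0.11, adjusted p = 0.0669). It was also lost with the L number as a factor (0.11). In females the means were 186.6 CPM in 5 Q175 vehicle mice and 159.8 CPM in 5 WT mice (0.24, adjusted p = 0.0130), and in males 180.3 CPM in 2 Q175 vehicle mice and 180.5 CPM in 4 WT mice (0.0043, adjusted p = 0.976), and the difference between the sexes was not tested. Its cortical levels were 125.5, 134.7 and 140.5 CPM in Q175 vehicle mice, against 108.3, 122.4 and 133.8 CPM in WT vehicle mice. The cortical ranges overlapped too, and the change was 0.16 ± 0.0415 (adjusted p = 0.00233), or 1.12 times the WT level, called without any 1 of the 16 libraries but not in males alone (0.14, adjusted p = 0.405).

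**Figure D1:**
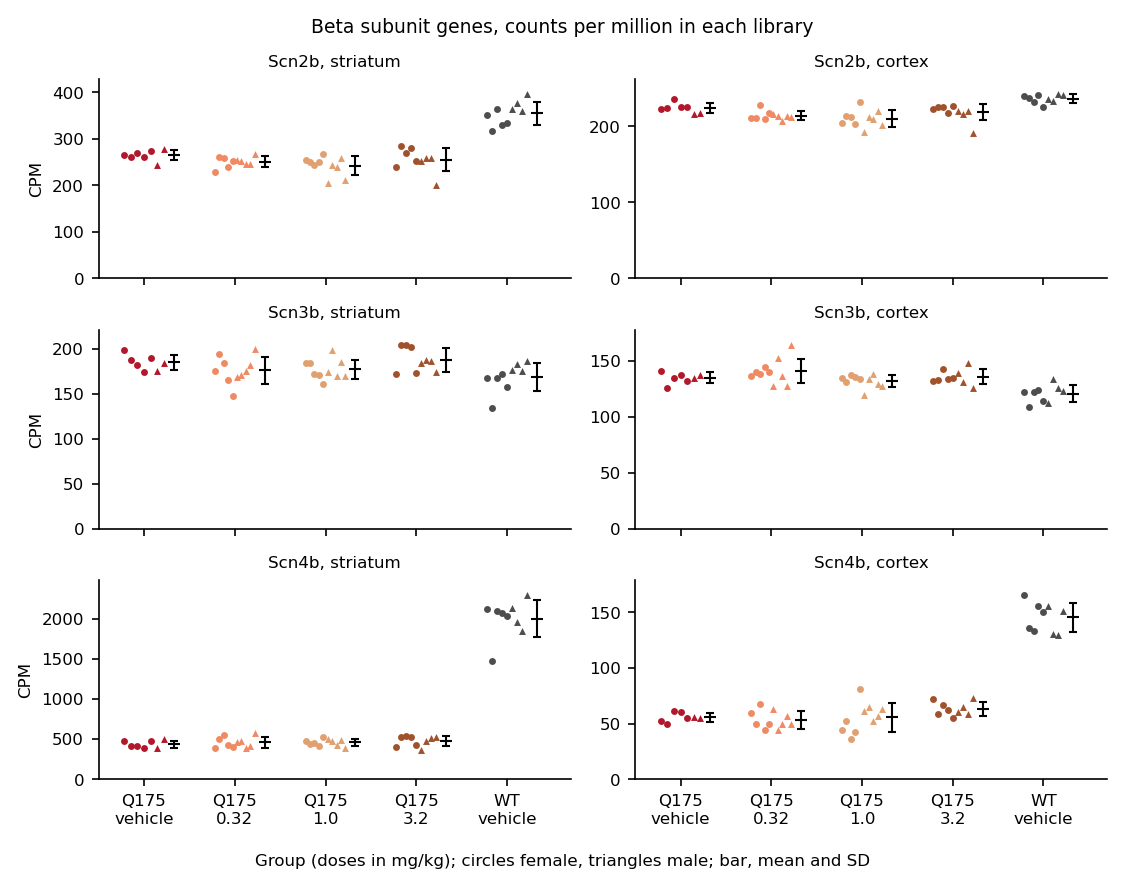
Levels of Scn4b, Scn2b and Scn3b in CPM (linear axis from 0) for each library of the striatum and the cortex. Points are mice (circles female, triangles male), and bars show the group mean and SD. All Q175 libraries of Scn4b, with and without the inhibitor, lie below all WT libraries in both tissues.

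The 3 beta genes were next compared with each other per length, as FPKM (fragments scaled to transcript length and to the library total). Scn4b made up 45.2 ± 1.76% of the summed FPKM of the 3 genes in Q175 vehicle striatum and 76.8 ± 1.61% in WT striatum (SD over mice). The share of Scn2b was 29.8 ± 1.21% in Q175 vehicle striatum and 14.8 ± 1.19% in WT striatum. The share of Scn3b was 25.0 ± 0.988% in Q175 vehicle striatum and 8.41 ± 0.570% in WT striatum. Thus Scn4b was the leading beta gene of the 3 in both genotypes, and none of these shares overlapped between the groups. In the cortex the leading gene was Scn2b, with 51.5 ± 1.09% in Q175 vehicle mice and 46.1 ± 1.22% in WT mice. Scn4b held 11.8 ± 0.643% in Q175 vehicle cortex and 26.2 ± 1.89% in WT cortex. Scn3b held 36.6 ± 1.02% in Q175 vehicle cortex and 27.7 ± 1.56% in WT cortex, again with no overlap. At no dose did a share of the 3 genes leave the range of Q175 vehicle mice entirely, and Scn4b held 47.6%, 48.0% and 47.7% in the striatum with rising dose. The shares sum to a whole, so a higher share of Scn2b or Scn3b need not be a higher level. The summed FPKM of the 3 genes was 197 ± 12.6 in Q175 vehicle striatum and 493.3 ± 49.9 in WT striatum, against 95.6 ± 2.54 in Q175 vehicle cortex and 109 ± 3.62 in WT cortex.

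**Figure D2:**
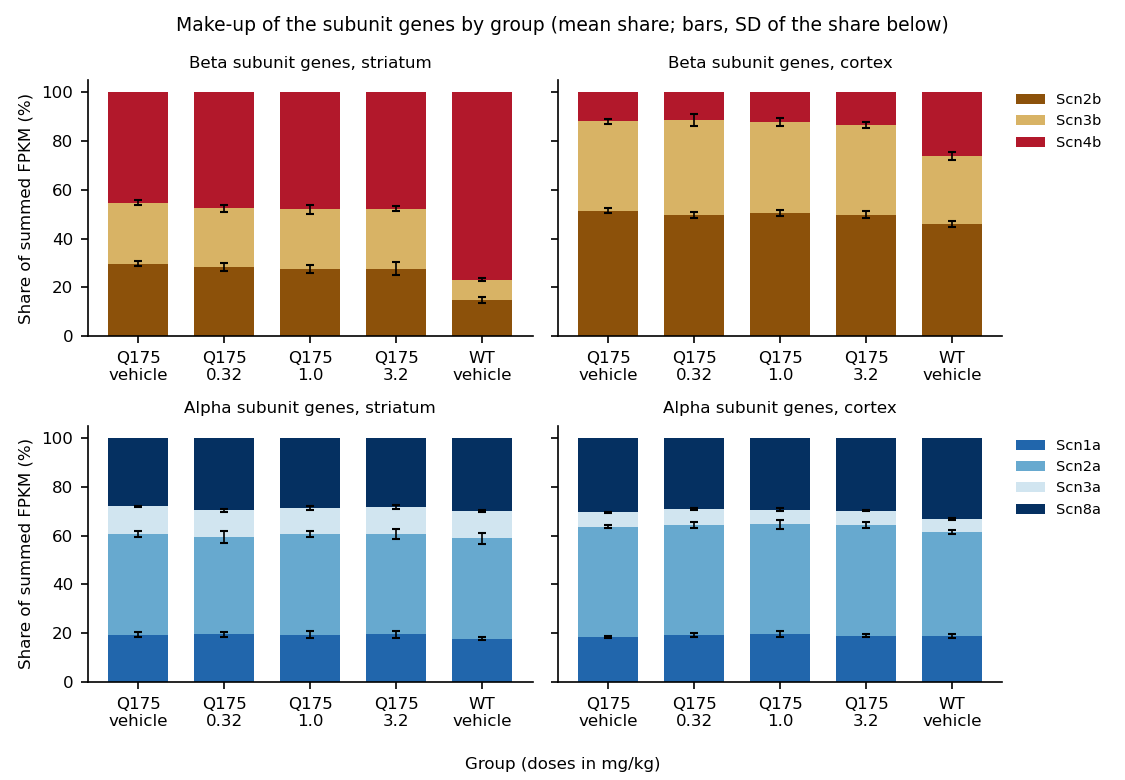
Share in percent of each gene in the summed FPKM of the 3 beta genes and of the 4 alpha genes, by group and tissue, as means over mice, with SD bars on all but the top segment. In the striatum the share of Scn4b is 45.2% in Q175 vehicle mice and 76.8% in WT mice.

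The alpha genes moved far less than Scn4b. They did not all move less than the other beta genes, since in the cortex Scn3a changed by more than Scn3b or Scn2b. Scn3a, an alpha subunit that rodents express mainly before birth, was called higher in the cortex. There it stood at 60.45, 64.73 and 66.33 CPM (lowest, median, highest) in Q175 vehicle mice, against 48.65, 56.22 and 58.84 CPM in WT vehicle mice. The groups did not overlap, and the log2 change was 0.21 ± 0.0493 (adjusted p = 6.87e-04), or 1.16 times the WT level. In males alone, 2 Q175 and 4 WT mice, it was 0.24 and not called (adjusted p = 0.141). In the striatum Scn3a ranged from 105.9 to 115.1 CPM in Q175 vehicle mice and from 88.85 to 121.1 CPM in WT vehicle mice. That change was 0.02 ± 0.0591 and was not called (adjusted p = 0.808).

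Scn8a, the main alpha subunit of the axon initial segment and the nodes of Ranvier in adult neurons, changed little, and in the striatum its direction depended on the scaling. Striatal levels were 320.8, 342.6 and 362.9 CPM (lowest, median, highest) in Q175 vehicle mice, against 328.2, 371.8 and 399 CPM in WT vehicle mice. The ranges overlapped widely, and the log2 change of -0.09 ± 0.0363 only just passed (adjusted p = 0.0483); it turned to 0.032 when libraries were scaled by their totals alone, a scaling that moved the median of all genes in this comparison to 0.12, and to 0.016 in limma on FPKM. DESeq2 did not call it (adjusted p = 0.0674), nor did edgeR in either sex alone. The call remained in only 5 of 16 fits that left out 1 library, those without Q175 vehicle F1 or M2 or WT vehicle F1, F4 or F5. Cortical levels were 409.6, 423.7 and 464.3 CPM in Q175 vehicle mice, against 445.7, 471 and 489.1 CPM in WT vehicle mice. Of the Q175 libraries F3 alone reached into the WT range. The cortical change was -0.12 ± 0.0492 and narrowly missed the threshold (adjusted p = 0.0509). It was -0.13 and called (adjusted p = 4.16e-05) without 1.0 mg/kg F1 and F4. These libraries are in neither group compared, but enter the shared estimate of the spread and the sex term. The cortical change was also called without Q175 vehicle F3 (-0.15), WT vehicle F5 or WT vehicle M2. It was called by DESeq2 (adjusted p = 0.0499), with GC and length offsets (-0.10) and in males alone (-0.16).

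Scn1a, the alpha subunit that carries much of the sodium current of parvalbumin interneurons, lay close to the threshold in the striatum. There it stood at 164.7, 175.4 and 197.8 CPM (lowest, median, highest) in Q175 vehicle mice, against 130.3, 169.3 and 192.8 CPM in WT vehicle mice. The change was 0.11 ± 0.049 and was not called by edgeR as fitted here (adjusted p = 0.0522). It was called by DESeq2 (0.12, adjusted p = 0.0351), with DESeq2 size factors, with GC and length offsets (0.09, adjusted p = 0.0160), with the L number of the labels as a factor, in females alone (0.16), with the 2 groups alone and without the filter. With library totals alone it was 0.23 and called (adjusted p = 6.2e-05), as it was in limma on FPKM (0.24 with a pseudocount of 0.1). It was also called when Q175 vehicle F3 (0.13) or M2 (0.13), or WT vehicle F3 (0.13), F4 (0.13) or M1 (0.14), was left out. Cortical levels were 182.2, 191.5 and 207.4 CPM in Q175 vehicle mice, against 178.2, 197 and 213.9 CPM in WT vehicle mice. They overlapped, and the change was -0.05 ± 0.0475 and not called (adjusted p = 0.459). Scn2a, an alpha subunit of excitatory and spiny projection neurons, was not called by edgeR in either tissue. Its striatal levels were 296.5, 298.8 and 324 CPM in Q175 vehicle mice, against 268.7, 324.7 and 371.9 CPM in WT vehicle mice. Its cortical levels were 346.9, 371.6 and 409.2 CPM in Q175 vehicle mice, against 338.8, 353.3 and 386.8 CPM in WT vehicle mice. The groups overlapped in both tissues. It changed by -0.03 ± 0.0575 in the striatum, with a 95% interval from -0.14 to 0.09, and by 0.07 ± 0.0442 in the cortex, with an interval from -0.02 to 0.15. The cortical change was called with GC and length offsets (0.073, adjusted p = 0.0116) and with library totals alone (0.11, adjusted p = 0.0414). Within the summed FPKM of the 4 alpha genes the cortical share of Scn2a was nevertheless 45.2 ± 0.578% in Q175 vehicle mice and 42.7 ± 0.809% in WT mice, and that of Scn8a 30.5 ± 0.354% in Q175 vehicle mice and 33.3 ± 0.568% in WT mice, both without overlap. In the striatum all 4 alpha shares overlapped between the genotypes.

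**Figure D3:**
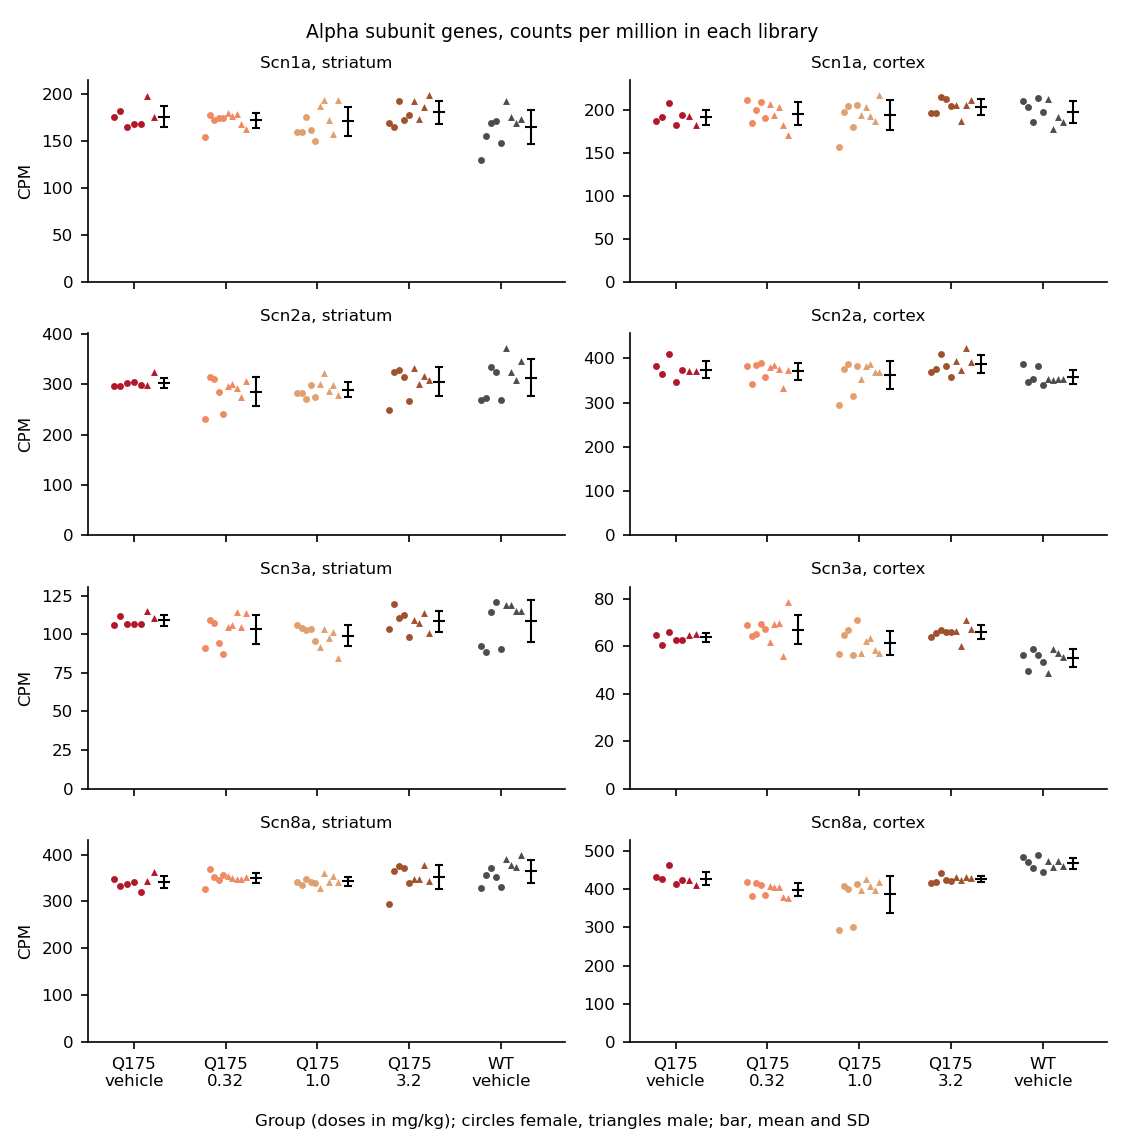
Levels of Scn1a, Scn2a, Scn3a and Scn8a in CPM (linear axis from 0) for each library of the striatum and the cortex (circles female, triangles male), with group means and SD. Scn3a in the cortex lies between 60.45 and 66.33 CPM in Q175 vehicle mice and between 48.65 and 58.84 CPM in WT mice, and cortex libraries F1 and F4 at 1.0 mg/kg are low for Scn8a.

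The counts of called members were set against those over all genes. In the striatum 4 of the 7 genes were called between Q175 vehicle and WT vehicle, 1 higher and 3 lower, where 45.1% of all genes tested were called (21.9% higher and 23.2% lower). With DESeq2 size factors or without the filter the split was 2 higher and 2 lower, and with library totals alone 3 higher and 2 lower. In the cortex 4 of 7 were called, 2 higher and 2 lower, against 30.4% of all genes (14% higher and 16.4% lower), and the split was 3 higher and 1 lower with library totals alone. The median log2 change of the 7 genes was -0.03 in the striatum and -0.05 in the cortex, beside 0.00 over all genes in each. Without the 5 striatum libraries over 300 CPM of cortical markers, an alternative chosen after seeing the data, 2 genes were called in the striatum, Scn4b and Scn2b.

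Markers of cell types moved with the genotype as well. The summed level of 10 medium spiny neuron genes was 3842 to 4528 CPM in Q175 vehicle striatum, against 7651 to 10667 CPM in WT striatum, with 9 of 10 members lower and a median log2 change of -1.21. In the cortex that sum was 441.9 to 613.5 CPM in Q175 vehicle mice, against 698.1 to 952.1 CPM in WT mice, with 10 of 10 lower and a median of -0.88. The sum of 8 pan-neuronal genes was 4871 to 5367 CPM in Q175 vehicle striatum and 4915 to 5432 CPM in WT striatum, ranges that overlapped, and it was 6280 to 6768 CPM in Q175 vehicle cortex and 6838 to 7573 CPM in WT cortex, without overlap. Without overlap, the striatal sums were lower in Q175 vehicle mice for 8 astrocyte genes (3437 to 3749 CPM, against 3905 to 4999 CPM in WT) and for 4 cholinergic neuron genes (72.37 to 91.09 CPM, against 105.6 to 125.1 CPM in WT). The sum of 8 GABA interneuron genes was 364.4 to 433.3 CPM in Q175 vehicle striatum and 400.7 to 552.5 CPM in WT striatum, and 584.2 to 607.7 CPM in Q175 vehicle cortex and 705.3 to 790.6 CPM in WT cortex. The sum of 10 cortical excitatory neuron genes was 1612 to 1781 CPM in Q175 vehicle cortex, against 1852 to 2070 CPM in WT cortex. The astrocyte sum was 3635 to 4221 CPM in Q175 vehicle cortex, against 4809 to 5523 CPM in WT cortex. Each of these cortical sums was lower in Q175 vehicle mice without overlap. The sum of 7 microglia genes was higher on average, at 424 CPM in Q175 vehicle striatum against 387.5 CPM in WT, and 335.7 against 302.4 CPM in the cortex. The sum of 8 oligodendrocyte genes averaged 9037 against 11267.5 CPM in the striatum and 3717 against 4405 CPM in the cortex. For 5 oligodendrocyte precursor genes the means were 121.6 against 113.1 CPM and 118.3 against 118.9 CPM. The ranges of these lists overlapped between the genotypes. No marker of any list was at 0 in any group. Their part in the changes of the sodium channel genes was not tested.

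The tissues themselves differed in every member. In WT vehicle mice 7 of 7 genes were called between striatum and cortex of the same mouse, 4 higher and 3 lower in the striatum, where 73.3% of all genes were called (38.1% higher and 35.1% lower). Scn4b was 281.5, 391.7 and 434.6 FPKM (lowest, median, highest) in WT striatum, against 25.38, 29.99 and 32.58 FPKM in WT cortex. The ranges lay far apart, and the within-mouse log2 difference was 3.78 ± 0.0853 (adjusted p = 1.33e-36), or 13.7 times the cortical level. Scn3a was higher in the striatum by 0.97 ± 0.0472, Scn2b by 0.59 ± 0.029 and Scn3b by 0.49 ± 0.0358. Scn8a was lower in the striatum (-0.36 ± 0.0422), as were Scn1a (-0.26 ± 0.0446) and Scn2a (-0.20 ± 0.0481). Thus all 3 beta genes and Scn3a were higher in the striatum, and the alpha subunits of adult neurons were higher in the cortex. In Q175 vehicle mice 7 of 7 were again called in the same directions, beside 68.8% of all genes (35.3% higher and 33.5% lower), with Scn4b at 2.97 ± 0.0946 and Scn1a at -0.12 ± 0.0505, a call lost without Q175 vehicle F3 (-0.08) or F5 (-0.10) and in limma on FPKM (-0.11, adjusted p = 0.0600, with a pseudocount of 0.1).

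The effect of Q175 differed between the tissues for 3 of the 7 genes, all more negative in the striatum, where 21.3% of all genes differed, 11.6% in that direction. The difference of the effects (striatum minus cortex, within mice) was -0.81 ± 0.118 for Scn4b (adjusted p = 4.78e-07) and -0.35 ± 0.0437 for Scn2b (adjusted p = 2.44e-08). For Scn3a it was -0.20 ± 0.0705 (adjusted p = 0.0336), and that call was lost without Q175 vehicle F1, F3 or F5 or WT vehicle F4, M1, M2 or M4, and with library totals alone or limma on FPKM. Scn3b, whose effect was 0.14 in the striatum and 0.16 in the cortex, gave a difference of -0.03 ± 0.0539, with a 95% interval from -0.13 to 0.08.

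**Figure D4:**
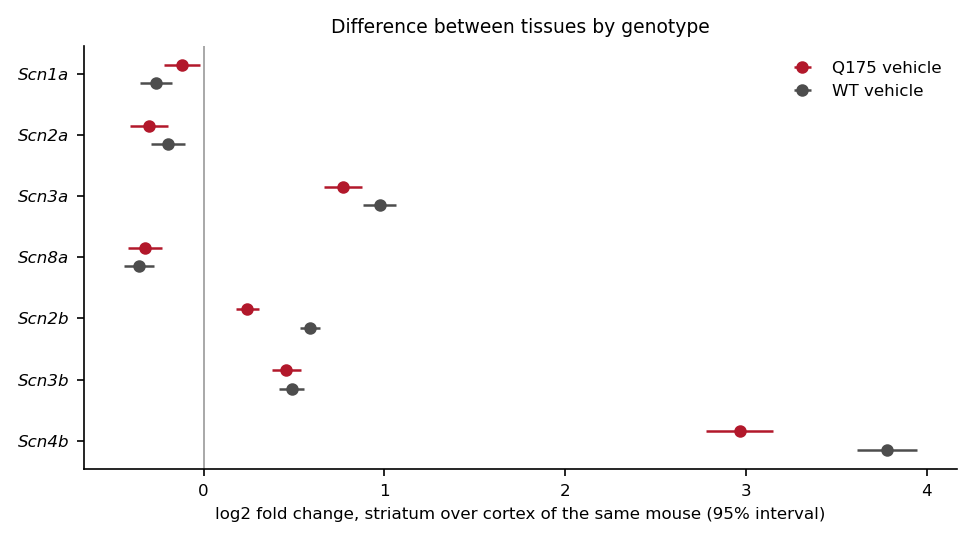
Log2 difference of striatum against cortex within mice for each of the 7 genes in Q175 vehicle and WT vehicle mice, with 95% intervals. Scn4b is highest at 2.97 in Q175 vehicle mice and 3.78 in WT mice, and Scn8a, Scn1a and Scn2a are below 0 in both.

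The inhibitor was compared with vehicle on the Q175 background, and the 3 dose groups share their vehicle mice. Scn4b in dosed striatum averaged 459.1 ± 67.2 CPM at 0.32 mg/kg, 457.7 ± 44.1 CPM at 1.0 mg/kg and 477.8 ± 65.4 CPM at 3.2 mg/kg, beside 435.8 ± 44.7 CPM in Q175 vehicle mice. The dose groups overlapped with vehicle at every dose. The log2 changes of Scn4b against vehicle were 0.07 ± 0.0858, 0.07 ± 0.0858 and 0.13 ± 0.0874, and the 95% interval at the highest dose ran from -0.04 to 0.30, where the knock-in had lowered the gene by 2.20. Scn2b averaged 250.9 ± 11.2, 242.2 ± 20.1 and 254.9 ± 24.7 CPM with rising dose, beside 264.4 ± 10.8 CPM in Q175 vehicle striatum, and its changes were -0.07 ± 0.0513, -0.12 ± 0.0512 and -0.05 ± 0.0522. No member was called at any dose in the striatum with edgeR, DESeq2 or limma, where edgeR called 2.49%, 1.07% and 1.48% of all genes. At an unadjusted p under 0.05 the counts of members were 0, 2 and 0, the 2 being Scn3a (-0.15, unadjusted p = 0.0134) and Scn2b (unadjusted p = 0.0217) at 1.0 mg/kg.

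In the cortex 0 of 7, 2 of 7 and 0 of 7 genes were called at the rising doses, beside 10.2%, 20.7% and 0% of all genes. Both members called at 1.0 mg/kg were lower, as were 9.8% of all genes. At 1.0 mg/kg Scn8a ranged from 291.8 to 427.3 CPM with a median of 404.1 CPM, against 409.6, 423.7 and 464.3 CPM (lowest, median, highest) in Q175 vehicle cortex. Libraries F1 (291.8 CPM) and F4 (300.6 CPM) held the low end, and the next was M1 at 396.4 CPM. The change of Scn8a was -0.15 ± 0.0483 (adjusted p = 0.0193), and that of Scn2b was -0.08 ± 0.0276 (adjusted p = 0.0245). With GC and length offsets neither was called, with -0.0085 for Scn8a (adjusted p = 0.857) and -0.036 for Scn2b (adjusted p = 0.448). Neither was called without both F1 and F4, with -0.06 for Scn8a (adjusted p = 0.0957) and -0.07 for Scn2b (adjusted p = 0.105), nor without F4 alone (-0.12 for Scn8a and -0.08 for Scn2b) or Q175 vehicle F3 alone (-0.13 for Scn8a and -0.08 for Scn2b). At 0.32 mg/kg Scn8a ranged from 376.9 to 418.7 CPM and its change of -0.11 ± 0.0482 was not called (adjusted p = 0.139), though it was with the 2 groups alone or without 1.0 mg/kg F1 and F4. The unadjusted counts were 2, 2 and 0, and DESeq2 and limma made the same counts of calls as edgeR. At 3.2 mg/kg 0 of 17603 genes were called by edgeR, 2 by DESeq2 and 0 by limma, with 1307 genes at an unadjusted p under 0.05.

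Cortical Scn4b averaged 53.3 ± 8.09 CPM at 0.32 mg/kg, 55.4 ± 13.0 CPM at 1.0 mg/kg and 63.3 ± 6.22 CPM at 3.2 mg/kg, beside 55.7 ± 4.18 CPM in Q175 vehicle cortex. The change at 3.2 mg/kg was 0.18 ± 0.102 (adjusted p = 0.731), with an interval from -0.02 to 0.38. Over the 36 Q175 mice with the 4 groups coded in equal steps, no member was called for a slope with dose in either tissue, beside 1.77% of all genes in the striatum and 0% in the cortex, and no member was at an unadjusted p under 0.05 in either. The steepest member slope was that of Scn4b, 0.04 ± 0.0264 per step in the striatum and 0.06 ± 0.0337 per step in the cortex (unadjusted p = 0.163 and 0.0646). No member was called for a difference of the 3.2 mg/kg effect between the tissues with edgeR, DESeq2 or limma (0 members at an unadjusted p under 0.05), where 1.17% of all genes did.

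**Figure D5:**
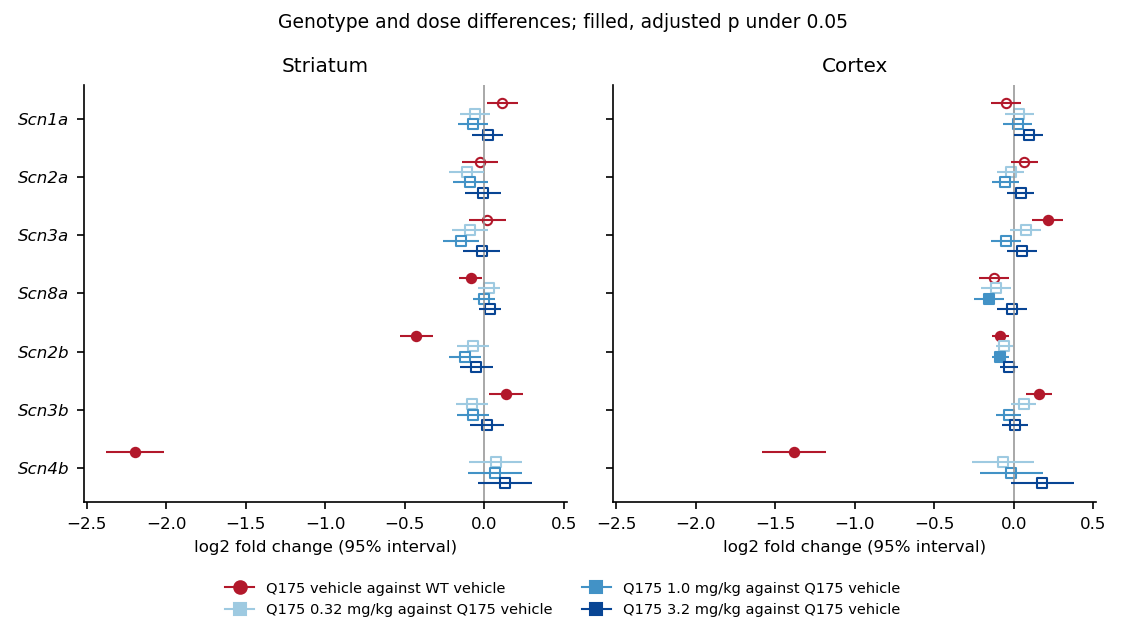
Log2 fold changes with 95% intervals for the 7 genes: Q175 vehicle against WT vehicle, and each dose against Q175 vehicle, in the striatum and the cortex. Filled marks have an adjusted p under 0.05. The changes of Scn4b with genotype are -2.20 in the striatum and -1.38 in the cortex, and its dose changes lie between -0.07 and 0.18.

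Dosed Q175 mice were also set against WT vehicle mice, which these comparisons share with each other and with the genotype comparison. In the striatum the log2 change of Scn4b was -2.13 ± 0.0813, -2.13 ± 0.0813 and -2.07 ± 0.0842 at 0.32, 1.0 and 3.2 mg/kg, and Scn2b changed by -0.50 ± 0.0474, -0.55 ± 0.0474 and -0.48 ± 0.0488. Over all 36 Q175 libraries the highest Scn4b level was 577.5 CPM, against a lowest WT level of 1470 CPM. The counts called were 3 of 7 at 0.32 mg/kg, all lower, 4 of 7 at 1.0 mg/kg, all lower, and 4 of 7 at 3.2 mg/kg, 2 higher and 2 lower, beside 51.7%, 53.3% and 51% of all genes. Of all genes 26.5% were lower at 0.32 mg/kg and 26.2% at 1.0 mg/kg, and at 3.2 mg/kg 25.4% were higher and 25.6% lower. The smaller calls were Scn2a at 0.32 mg/kg (-0.14), Scn3a and Scn8a at 1.0 mg/kg (-0.13 and -0.09), and Scn1a and Scn3b at 3.2 mg/kg (0.14 and 0.15). Under library totals alone or limma on FPKM the Scn2a value at 0.32 mg/kg and the Scn3a and Scn8a values at 1.0 mg/kg lost their calls. There Scn2a was -0.0089 and 0.012, Scn3a was -0.0011 and -0.0041, and Scn8a turned to 0.039 and 0.018. Scn1a and Scn3b were called higher at both doses under library totals alone or limma. Scn2a at 0.32 mg/kg was also not called with the L number, the 2 groups alone or without the filter. Scn3a at 1.0 mg/kg was also not called with DESeq2 size factors, the L number, the replicate block or the 2 groups alone, or without the filter. With 1 library left out, Scn2a at 0.32 mg/kg lost its call without 0.32 mg/kg F1, F4, F5, M2, M3 or M4 or WT vehicle F3, F4, M1 or M4. At 1.0 mg/kg Scn3a kept its call only without 1.0 mg/kg F1 or F2 or WT vehicle F1, F2 or F5, and Scn8a lost it without 1.0 mg/kg F2, M1 or M5 or WT vehicle M4. Scn2a was called at 1.0 mg/kg without WT vehicle F1, F2, F5 or M3, and without the 5 libraries over 300 CPM of cortical markers (-0.13, adjusted p = 0.0316).

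In the cortex the counts were 5 of 7, 5 of 7 and 6 of 7, beside 45.5%, 49.8% and 38.3% of all genes. Of all genes 22.8%, 25.3% and 18.6% were higher with rising dose, and 22.7%, 24.6% and 19.7% were lower. At each dose Scn3a and Scn3b were higher than in WT and Scn8a, Scn2b and Scn4b were lower, and Scn2a was also higher at 3.2 mg/kg (0.11 ± 0.0412), a call lost without 3.2 mg/kg F3 or M3 or WT vehicle F2, F5 or M1, or with the L number (0.099). Scn8a ranged from 376.9 to 418.7, from 291.8 to 427.3 and from 416.5 to 441.5 CPM at the rising doses, all below the lowest of 9 WT libraries at 445.7 CPM. Its changes were -0.23 ± 0.0446, -0.28 ± 0.0446 and -0.13 ± 0.0457, and without F1 and F4 that at 1.0 mg/kg was -0.19 (adjusted p = 7.68e-09). The call at 3.2 mg/kg was lost with library totals alone (-0.084, adjusted p = 0.129), in limma on FPKM (-0.082, adjusted p = 0.102, with a pseudocount of 0.1) and without the filter (-0.11, adjusted p = 0.0656). Scn4b changed by -1.45 ± 0.0923, -1.40 ± 0.0922 and -1.20 ± 0.0945, again with no overlap.

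Sex made small differences. In the striatum 2 of 7 genes were called, both higher in males, beside 10.5% of all genes, 5.68% in that direction. Scn1a averaged 180.3 ± 11.99 CPM in 20 males and 166.7 ± 12.8 CPM in 25 females over all groups (0.12 ± 0.0293, adjusted p = 0.00919), and Scn2a averaged 309.9 ± 22.9 CPM in males and 290.1 ± 27.5 CPM in females (0.10 ± 0.0343, adjusted p = 0.0440). Scn1a had 157.4, 177.8 and 199.2 CPM (lowest, median, highest) in males, against 130.3, 169.3 and 192.3 CPM in females. Scn2a had 275.3, 304.4 and 371.9 CPM in males, against 232.2, 296.5 and 334.1 CPM in females. The sexes overlapped for both. In each of the 5 groups the male mean of Scn1a lay above the female mean, the nearest being 173.3 and 170.7 CPM at 0.32 mg/kg and the farthest 177.7 and 154.7 CPM in WT vehicle. The Scn2a call held in 22 of 45 fits that left out 1 library, with adjusted p between 0.0224 and 0.0805, and was lost without the 5 libraries over 300 CPM of cortical markers (0.08, adjusted p = 0.162). In the cortex no member was called by edgeR, DESeq2 or limma, beside 2.21% of all genes, and 1 was at an unadjusted p under 0.05.

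Over the 10 combinations of tissue and group, levels were ordered by FPKM. Scn4b was highest in WT striatum (379 ± 43.9 FPKM), followed by the 4 Q175 striatum groups between 89.4 and 97.5 FPKM, WT cortex at 28.7 ± 2.64 FPKM and the Q175 cortex groups between 10.8 and 12.9 FPKM. The 4 Q175 striatum groups did not differ beyond their SD. Scn2b ran from 72.8 ± 4.67 FPKM in WT striatum to 46.4 ± 2.31 FPKM in cortex at 1.0 mg/kg, and only the first gap in that order, to 58.7 ± 2.32 FPKM in Q175 vehicle striatum, was larger than the SD of both neighbours. Scn3b had the Q175 striatum groups on top (47.4 to 50.1 FPKM), then WT striatum (41.4 ± 3.8 FPKM), then the Q175 cortex groups (34.4 to 36.6 FPKM) and last WT cortex (30.3 ± 1.97 FPKM). In each tissue WT was thus the lowest group for Scn3b and the highest for Scn4b.

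Among the alpha genes Scn2a was the most expressed per length in every group, from 59.7 ± 3.89 FPKM in cortex at 3.2 mg/kg to 43.8 ± 7 FPKM in WT striatum. Scn8a ran from 41.5 ± 1.06 FPKM in WT cortex to 31.5 ± 1.64 FPKM in WT striatum, so that WT stood at both ends of its order. The 5 striatum groups of Scn8a, with means of 31.5 to 32.7 FPKM, did not differ beyond their SD. Scn1a ranged between 25 ± 1.19 and 18.9 ± 2 FPKM, and Scn3a between 12.8 ± 0.438 FPKM in Q175 vehicle striatum and 6.37 ± 0.501 FPKM in WT cortex. FPKM were not rescaled for composition, so a level common to Q175 groups can stand higher in this order than in CPM.

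Other genes of the sodium channel machinery were counted between Q175 vehicle and WT vehicle mice, where 45.1% of all genes were called in the striatum (21.9% higher and 23.2% lower) and 30.4% in the cortex (14% higher and 16.4% lower). Of 7 further sodium channel genes 5 were tested in the striatum, with 2 higher and 0 lower. Scn9a, an alpha subunit best known from sensory neurons, rose by 0.88 ± 0.0852 (adjusted p = 7.81e-12). In the cortex 6 were tested, with 2 higher and 2 lower. There Scn9a rose by 0.93 ± 0.0977 (adjusted p = 2.02e-10), Scn7a, a sodium-sensing relative, rose by 0.67 ± 0.0733 (adjusted p = 5.59e-10), and Scn10a fell by 0.99 ± 0.314 (adjusted p = 0.0132). The intracellular FGFs bind the tail of the alpha subunit and tune its inactivation. Of these 4 genes 1 fell in the striatum, Fgf14 (-0.30 ± 0.0587, adjusted p = 3.96e-05), and all 4 fell in the cortex, led by Fgf11 (-0.25 ± 0.0517), Fgf12 (-0.16 ± 0.0354) and Fgf14 (-0.16 ± 0.0429).

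Of 8 scaffold genes of the axon initial segment and node 1 was higher and 1 lower in the striatum, the adhesion molecules Cntn1 (0.21 ± 0.032) and Cntnap1 (-0.40 ± 0.0523). In the cortex 2 were higher and 1 lower, namely the spectrin gene Sptbn4 (0.20 ± 0.0578), Cntn1 (0.08 ± 0.0275) and Cntnap1 (-0.10 ± 0.0375). Ank3, the ankyrin that anchors the channels, was not called in either tissue. Of 8 channel regulators 2 were higher and 4 lower in the striatum, and 1 was higher and 3 lower in the cortex. The ubiquitin ligase gene Nedd4l changed by -0.50 ± 0.0695 in the striatum and -0.13 ± 0.0423 in the cortex, and the kinase subunit gene Prkacb by 0.25 ± 0.0332 in the striatum and 0.14 ± 0.0221 in the cortex. In the sodium leak channel complex 2 of 4 genes were higher and 1 lower in the striatum, with the channel Nalcn at 0.28 ± 0.0457, Fam155a at 0.20 ± 0.0619 and Unc79 at -0.29 ± 0.0514. In the cortex Nalcn alone was called (0.23 ± 0.0374). Median changes of the 5 lists in the striatum were 0.23, -0.03, -0.02, -0.12 and 0.13, beside 0.00 over all genes.

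Genes with the most similar pattern over the 45 striatum libraries were listed by Pearson's r of log2 CPM, as a description across libraries that share their groups. For Scn4b they were the phosphodiesterase gene Pde1b (r = 0.986), Ppp1r1b, which encodes the phosphoprotein DARPP-32 of medium spiny neurons (0.985), and Arpp21 (0.984). For Scn2b they were Gm45837 (0.962), the dopamine receptor gene Drd2 (0.961) and Cap1 (0.960). The alpha genes had lower values, from 0.904 for Lyst with Scn2a down to 0.812 for Gcc2 with Scn3a. Ppargc1a (0.870), Ckap5 and Spag9 were nearest to Scn1a, Nbea (0.902) and Cacnb4 followed Lyst for Scn2a, Lrba (0.857) and Dip2c led for Scn3a, and Add2 (0.834), Tanc2 and Caln1 for Scn8a. For Scn3b they were Tnpo3 (0.824), Ets2 and Atl1.

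With group and sex removed, the spread among mice could be read within groups. In the striatum Scn4b followed the summed medium spiny neuron markers (r = 0.84 over 45 libraries), and in the cortex it did so less (r = 0.45). Most other members went with these markers in the striatum too: Scn2b (0.69), Scn3a (0.63), Scn2a (0.51) and Scn8a (0.50). Scn1a did not (-0.20). Scn3b in the striatum went with the same markers (0.73) and against the summed GABA interneuron (-0.80) and cortical excitatory neuron markers (-0.65). The other members were negative with both lists too. Their values ran from -0.12 (Scn1a) to -0.65 (Scn2a) with the GABA interneuron markers. With the cortical excitatory neuron markers they ran from -0.05 (Scn1a) to -0.52 (Scn3a). Without the 5 libraries over 300 CPM of cortical markers the striatal values over 40 libraries were 0.76 for Scn4b with the medium spiny neuron markers, and 0.62, -0.68 and -0.50 for Scn3b with the 3 lists in the same order. With the medium spiny neuron markers Scn2b then stood at 0.76, Scn8a at 0.66, Scn2a at 0.56, Scn3a at 0.54 and Scn1a at -0.21. Scn2a went with Scn3a in the striatum (0.71, and 0.70 without those libraries). In the cortex it went with Scn8a (0.84) and Scn1a (0.73), and without 1.0 mg/kg F1 and F4 these values over 43 libraries were 0.75 and 0.55. The cortical value of Scn4b with the medium spiny neuron markers was then 0.44. All of these values come from the same libraries and share their scaling, and they are given without a test.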

How the data were processed

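Bulk RNA of both tissues was sequenced as Illumina libraries from total RNA. The authors deposited, per the file headers, estimated counts and FPKM per gene and library. CASAVA 1.8.2 is named in the submitters' processing notes, and of aligner, counter, genome build and annotation the sources used here say nothing. The transcript length implied by counts, FPKM and library total was 4940 bases for Scn4b. For some genes it varied between libraries, from 6265 to 7658 bases for Scn2a. These lengths enter the FPKM and the shares. Fractional values were rounded (81.5% of the estimated counts lay within 1e-06 of an integer). Symbols came from GENCODE M21, which matched 36723 of 38561 gene IDs and 99.7% of counts. No 2 libraries of a group agreed within sampling noise (366 pairs, chi-square divided by its degrees of freedom at least 3.31).

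The main test was edgeR's (4.0.16, R 4.3.3) quasi-likelihood test with TMM scaling, its default filter on low counts, and group and sex as terms over the 45 libraries of a tissue. CPM are TMM-scaled. Comparisons of tissues used all 90 libraries with the mouse as a block, since the labels number the animals (median correlation of a mouse's deviations from its group and sex between tissues 0.246, lowest -0.0186, over 0.1 in 40 of 45 mice). Genes with an adjusted p (Benjamini-Hochberg, over all genes) under 0.05 were called. DESeq2 1.42.0 and limma 3.58.1 on log2(FPKM + 0.1) and log2(FPKM + 1) were alternatives. The edgeR comparison of Q175 vehicle with WT vehicle in the striatum was also run on simulated counts. The other comparisons and tools were not. The genes and lists were chosen with earlier results of these data known, and every one of the 7 genes is named in each comparison where it was called. For genes of similar pattern the 3 with the highest r were named. The cholinergic list held 4 of 5 genes, since Slc18a3 was unmatched. Some members of the further lists are counted but not reported by name here.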

Additional observations from a re-analysis of the deposited data

Results flagged for a closer look

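In 5 of 70 combinations of gene, tissue and group, where chance gives about 1 in 20 groups or 3.5, a single library stood far from the rest by Dixon's criterion. Scn2a in Q175 vehicle striatum was highest in M2 at 324 CPM, where the next library had 305.6 CPM. Scn8a in striatum at 3.2 mg/kg was lowest in F1 at 295.3 CPM, the next being 339.9 CPM. Scn8a in Q175 vehicle cortex was highest in F3 at 464.3 CPM, the next being 432 CPM. Scn2b in cortex was highest in F3 at 0.32 mg/kg (227.1 CPM, next 217.3 CPM) and lowest in M4 at 3.2 mg/kg (191.2 CPM, next 216.3 CPM).

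The effect of Q175 differed between the tissues, by a test of the difference itself within mice, for Scn4b (-0.81, striatum minus cortex, log2), Scn2b (-0.35) and Scn3a (-0.20).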

How the results depend on the processing

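The fall of Scn4b in Q175 vehicle mice kept its call in every alternative fit of both tissues, between -2.25 and -2.06 in the striatum and between -1.41 and -1.26 in the cortex, and so did that of Scn2b in the striatum (-0.52 to -0.31). Of 702 counts of calls in alternative fits, 653 stayed within 1.5 times the value reported, with a 0 that stayed 0 counted among them. They were 423 of 454 with 1 library left out and 230 of 248 under other settings. Such small counts can hardly move, so single values were counted too. Of 1546 values of members called in the main fit, 145 lost their call and 8 changed sign. Of 3368 values of members not called in the main fit, 58 gained a call with the same sign and 1 with the other sign. A further 147 of these values changed sign without a call. The number of members called between Q175 vehicle and WT vehicle was 2 in males alone in each tissue, and 2 in the striatum without the 5 libraries over 300 CPM of cortical markers. It was 5 for 0.32 mg/kg against WT striatum with library totals alone, and 2 for 1.0 mg/kg against WT striatum with the L number of the labels as a factor or without the filter. For sex in the striatum it was 1 with GC and length offsets, with the L number, without the filter or without those 5 libraries. In the cortex against Q175 vehicle it was 1 at 0.32 mg/kg with the 2 groups alone or without 1.0 mg/kg F1 and F4. At 1.0 mg/kg it was 0 with GC and length offsets, with the L number, with the 2 groups alone or without F1 and F4, and 1 without the filter. For the difference of the Q175 effect between tissues it was 5 with GC and length offsets.

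With 1 library left out, the counts ran from 2 to 5 for Q175 vehicle against WT in the striatum and 4 to 5 in the cortex. In the striatum they ran from 2 to 3, 2 to 5 and 4 to 4 at rising dose against WT, and from 1 to 2 for sex. In the cortex they ran from 0 to 2 at 1.0 mg/kg against vehicle, and from 5 to 6 at 3.2 mg/kg against WT. They ran from 2 to 3 for the difference between tissues, from 6 to 7 for the tissues of Q175 vehicle mice and from 7 to 7 for those of WT mice.

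Changes of sign touched small values, listed here where the member was called in the main or the alternative fit. For Scn8a in Q175 vehicle against WT striatum the change was 0.032 with library totals alone and 0.016 in limma with either pseudocount. For 0.32 mg/kg against WT striatum it was 0.012 and 0.011 for Scn2a in limma with a pseudocount of 0.1 and 1, and 0.070 for Scn8a with library totals alone. This Scn8a value was called higher, where the main fit gave -0.057 and no call. For 1.0 mg/kg against WT striatum the change was 0.039 for Scn8a with library totals alone and 0.018 in limma with either pseudocount. The cause was not tested.

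The replicate numbers of the labels do not pair mice across groups (correlation of deviations of same-numbered mice, median -0.0226 in the striatum and -0.0449 in the cortex, lowest -0.470 and -0.350). With the sex and number as a replicate block, 3 members were called between Q175 vehicle and WT in the striatum, with Scn8a at an adjusted p of 0.0534, and 4 in the cortex. With the mouse left out of the tissue comparison, 2 members differed in their Q175 effect. The lowest count of Scn1a in any library was 4717.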

Other observations

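Scn2b and Scn4b were set beside their neighbours within 250 kb, a set named after the values were seen. Between Q175 vehicle and WT vehicle mice 11 of 20 other genes were tested in the striatum, with 1 higher, 6 lower and 4 not called (median log2 change -0.41), and 10 in the cortex, with 1 higher, 5 lower and 4 not called (median -0.17). Of all genes tested 45.1% were called in the striatum (21.9% higher and 23.2% lower) and 30.4% in the cortex (14% higher and 16.4% lower). BC049352 fell by 1.84 ± 0.154 in the striatum (edgeR, adjusted p = 1.06e-13) and by 0.64 ± 0.187 in the cortex (adjusted p = 0.00661). Tmprss4, a membrane-bound serine protease gene, fell by 1.36 ± 0.294 in the striatum (adjusted p = 1.68e-04). Il10ra, the interleukin-10 receptor gene, changed by -0.59 in the striatum and -0.18 in the cortex, and Mpzl3 by -0.47 in the striatum and -0.25 in the cortex. The other genes of the window were not set against other windows of the genome.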
